A study of Homo sapiens with 3 samples.

Results

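The major histocompatibility complex (MHC) genes described here were HLA-B, HLA-C, HLA-E and HLA-F of class I, B2M, which encodes their shared light chain, HLA-DRA, HLA-DPA1 and HLA-DMA of class II, and CD74. They were taken by gene symbol, with every non-control probe that carried 1 of these names, which gave 9 genes of the 30982 gene names on the array and 19 probes of the 41000. RNA came from 1205Lu, a human melanoma line grown out of a lung metastasis that its parent line, WM793, formed in a mouse. The original monolayer (OM) had 14 days in RPMI-1640 with 10% fetal calf serum (FCS). Melanoma bodies (MB), compact structures that stay attached to the plate, had 14 days in hESC medium, which is DMEM/F-12 in which 20% KnockOut serum replacement stands in for serum, and were detached physically. The new monolayer (NM) had the same 14 days as bodies and then 10 days in RPMI-1640 with 10% FCS, after which remaining bodies were taken away. The labels name no added gene or allele for any population, all were the same line, and each was read on 1 array.

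MHC class I molecules are formed by a heavy chain (such as HLA-B and HLA-C, which vary widely between people, or HLA-E and HLA-F, which vary little) and beta-2-microglobulin, and show peptides from inside the cell to CD8 T cells. HLA-E is also the ligand of an inhibitory receptor on natural killer (NK) cells. Class II molecules are pairs of an alpha and a beta chain, such as HLA-DRA with a DRB chain or HLA-DPA1 with HLA-DPB1. They show peptides from the endosome to CD4 T cells. CD74, the invariant chain, blocks their groove until HLA-DM, made of HLA-DMA and HLA-DMB, helps a peptide in. Class I is made by almost all nucleated cells and is lost in part by many melanomas, while class II is made mainly by professional antigen-presenting cells and by some melanomas. NLRC5 is the main co-activator of class I genes and CIITA of class II genes, and both act through promoter elements shared by the classes.

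The probes were strands of 60 bases, and those of related HLA genes can resemble each other, so the sequences behind the class I values are shown first. The HLA-B probe at chr6:31431079-31431138 and the HLA-F probe at chr6:29800992-29801051 (hg17, the build of the files) were identical at 49 of 55 overlapping bases, and capitals mark their longest shared run, 20 bases.
HLA-B: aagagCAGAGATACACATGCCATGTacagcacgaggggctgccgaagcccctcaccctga
HLA-F: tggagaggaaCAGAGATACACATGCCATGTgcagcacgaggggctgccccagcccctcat
By the coordinates in the files, probes under the array's HLA-C name lay at more than 1 locus, and the next probe is an example. By the coordinates in the files it lay at chr6:31430871-31430936, where it overlapped the brightest HLA-B probe (chr6:31430895-31430954) by 42 bases, and not at the HLA-C probes near chr6:31344612-31344671. The probe printed in 10 spots under the HLA-C name (chr6:31429768-31429819) likewise lay 1076 bases from that HLA-B probe. Neither span is 60 bases long, so the coordinates may come from partial or gapped alignments. Which gene either probe reads was not tested.
HLA-C: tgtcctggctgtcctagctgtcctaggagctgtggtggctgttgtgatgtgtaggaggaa
The HLA-E probe with the highest signal and the B2M probe printed in 10 spots are given for comparison, at chr6:30567339-30567398 and chr15:42795065-42795124.
HLA-E: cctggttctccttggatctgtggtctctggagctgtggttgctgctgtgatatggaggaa
B2M: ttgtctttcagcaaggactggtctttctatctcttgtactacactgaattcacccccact
Values under a class I name are therefore values of that probe and can hold RNA of a related HLA gene.

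Upstream sequences are shown so that members with like values can be compared there, and no link to the signals was tested. RefSeq's promoter table (GRCh38.p14) had an entry for 7 of the 9 members, and the 250 bases before the start were searched on both strands for 3 motifs. CTGATTGG is the Y box, bound by NF-Y. TTTCNNTT is a core of the interferon response element, and GGGNNTTC a core of NF-kappaB sites. Matches are in capitals.
HLA-B, chr6:31357180-31357429, minus strand: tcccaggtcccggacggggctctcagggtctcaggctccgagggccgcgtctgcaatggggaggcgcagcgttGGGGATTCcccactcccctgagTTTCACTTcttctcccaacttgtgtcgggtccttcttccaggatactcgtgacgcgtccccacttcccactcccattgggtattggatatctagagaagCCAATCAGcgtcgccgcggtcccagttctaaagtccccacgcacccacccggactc
HLA-C, chr6:31272093-31272342, minus strand: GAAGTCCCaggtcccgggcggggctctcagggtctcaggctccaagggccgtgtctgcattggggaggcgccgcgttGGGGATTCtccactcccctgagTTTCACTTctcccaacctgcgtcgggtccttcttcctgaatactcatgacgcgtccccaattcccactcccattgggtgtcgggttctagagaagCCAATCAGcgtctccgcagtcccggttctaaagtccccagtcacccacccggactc
HLA-F, chr6:29723184-29723433, plus strand: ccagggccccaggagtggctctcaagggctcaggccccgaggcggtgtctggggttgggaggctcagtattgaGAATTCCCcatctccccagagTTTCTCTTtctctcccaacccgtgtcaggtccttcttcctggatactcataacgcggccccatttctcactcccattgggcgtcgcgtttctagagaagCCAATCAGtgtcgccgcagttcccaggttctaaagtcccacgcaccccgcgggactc
B2M, chr15:44711267-44711516, plus strand: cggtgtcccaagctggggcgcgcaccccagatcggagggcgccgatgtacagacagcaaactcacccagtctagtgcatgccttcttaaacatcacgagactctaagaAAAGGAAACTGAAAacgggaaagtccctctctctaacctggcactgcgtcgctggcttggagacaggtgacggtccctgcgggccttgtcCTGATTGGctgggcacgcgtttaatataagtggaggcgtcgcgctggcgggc
HLA-DMA, chr6:32953098-32953347, minus strand: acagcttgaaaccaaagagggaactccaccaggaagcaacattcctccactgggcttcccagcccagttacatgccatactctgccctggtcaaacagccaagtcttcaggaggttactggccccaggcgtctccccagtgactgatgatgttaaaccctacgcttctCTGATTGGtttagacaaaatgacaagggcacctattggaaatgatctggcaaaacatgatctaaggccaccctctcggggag
HLA-B, HLA-C and HLA-F each held all 3 motifs, with the Y box starting 56, 56 and 57 bases before the start and the interferon core 155, 151 and 156 bases before it. In B2M 2 overlapping matches to the interferon core lay 142 to 129 bases before the start and the Y box 52 to 45 bases before it. HLA-DMA held the Y box alone, 82 to 75 bases before the start, CD74 held none of the 3 in this window, and of the 2 HLA-DPA1 entries 1 held the NF-kappaB core alone. These coordinates are of another build than those of the probes and cannot be set against them. Of all 35116 upstream sequences in the table, 3.81% held the Y box, 20.3% the interferon core, 14.3% the NF-kappaB core and 0.0826% all 3. The motifs were chosen after these sequences were read, so the shares are no test of their presence in the members. The matches are of letters and do not show that a factor binds.

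Signals below are the deposited background-subtracted intensities in arbitrary units (a.u.), averaged over the spots of a probe and scaled to OM by the housekeeping genes ACTB, GAPDH and HSP90AA1. A gene is represented by its probe with the highest mean signal unless another is named. With 1 array per population no test was possible, so each fold describes 1 culture against 1 other. The single repeated measurement was that of probes printed in 10 spots, whose median spread gave single spots a technical SD, on the log2 scale, of 0.06 between MB and OM, 0.07 between NM and OM and 0.06 between MB and NM. No member spot was saturated or marked as an outlier. In RNA of a whole culture, fewer cells with a transcript and less of it per cell cannot be told apart.

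B2M gave 118502 ± 2944 a.u. (n = 10 spots, SD) in OM, 90907 ± 1885 in MB and 195414 ± 2878 in NM. It was 1.30-fold lower in MB than in OM and 1.65-fold higher in NM than in OM, and between MB and NM it differed 2.15-fold. The lowest of its 10 spots in OM, 114839 a.u., lay above the highest in MB, 93917, and the highest in OM, 125060.2, below the lowest in NM, 190147, so the spots of the 3 arrays did not overlap. The other B2M probe (chr15:42794602-42794661), designed on another transcript record, gave 257 a.u. in OM, 196 in MB and 142 in NM and was thus 1.81-fold lower in NM than in OM, opposite to the 10-spot probe.

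**Figure D1:**
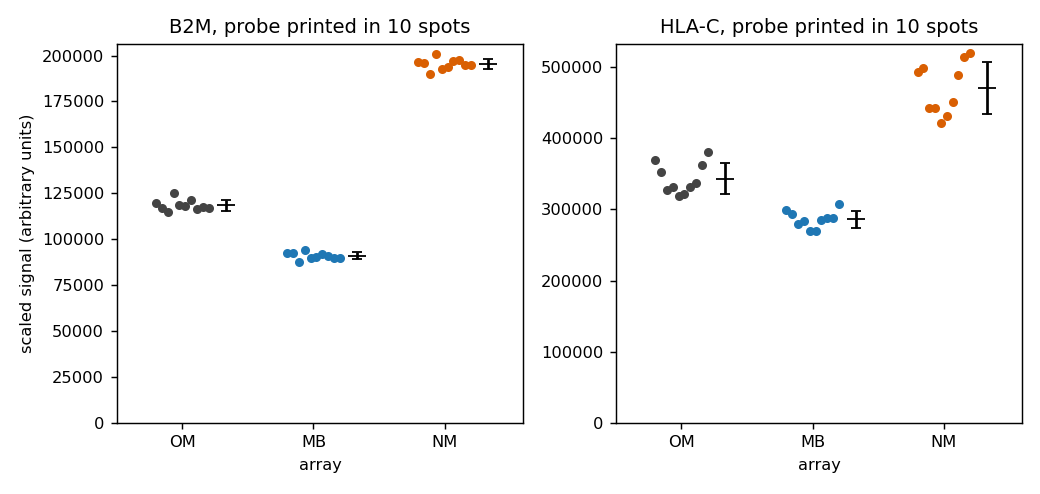
Scaled signal, in a.u. on an axis from 0, of each of the 10 spots of the B2M probe and the HLA-C probe printed in replicate, for the OM, MB and NM arrays; the dash and bar beside each group are the mean ± SD over spots. For both probes every MB spot lies below every OM spot and every NM spot above, and the spots share 1 RNA per array.

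HLA-C, a classical class I heavy chain that is also a ligand of NK cell receptors, gave 343339 ± 21506 a.u. (n = 10 spots, SD) in OM, 286249 ± 12151 in MB and 470499 ± 36447 in NM. Its spots ran from 318189.7 to 380261 a.u. in OM, from 269053 to 307484 in MB and from 422137 to 520080.4 in NM, again with no overlap. On this probe, placed in the HLA-B region by its coordinates, the signal was 1.20-fold lower in MB and 1.37-fold higher in NM than in OM. The 2 HLA-C probes placed outside the HLA-B region gave the same order with other sizes. At chr6:31344612-31344671 the signals were 234592, 208724 and 296611 a.u. in OM, MB and NM, a 1.42-fold difference between MB and NM. At chr6:31347078-31347387 they were 61658, 45822 and 104613 a.u., a difference of 2.28-fold. The probe whose sequence is shown above gave 142031, 111567 and 223887 a.u., and MB was 2.01-fold below NM on it.

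HLA-B, the other classical class I member, gave 290510.2 a.u. in OM, 210679 in MB and 416784 in NM. That is 1.38-fold lower in MB and 1.43-fold higher in NM than in OM, and its MB signal stood 1.98-fold below NM. The probe shown above gave 184625, 137300.0 and 264695 a.u., with a difference of 1.93-fold between MB and NM, so both HLA-B probes lay just under the 2-fold line.

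HLA-E had the signals 95361 a.u. in OM, 62266 in MB and 159206 in NM. It was 1.53-fold lower in MB and 1.67-fold higher in NM than in OM, and 2.56-fold apart between MB and NM. Its other probes kept the order, with 45255, 32416 and 71502 a.u. at chr6:30566046-30566105 and 37774, 34234 and 67620.2 a.u. at chr6:30568708-30568767. On the last of these MB was 1.10-fold below OM, the smallest of the differences between MB and OM over the class I probes and B2M's 10-spot probe.

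HLA-F, a nonclassical heavy chain, gave 55879 a.u. in OM, 37217 in MB and 95834 in NM, and on its other probe 46538, 29332 and 74972 a.u. The MB signal was 1.50-fold below OM on the first probe and 1.59-fold on the other. Between MB and NM the probes differed 2.57-fold and 2.56-fold, and the first of these was the largest MB to NM difference of any member probe.

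**Figure D2:**
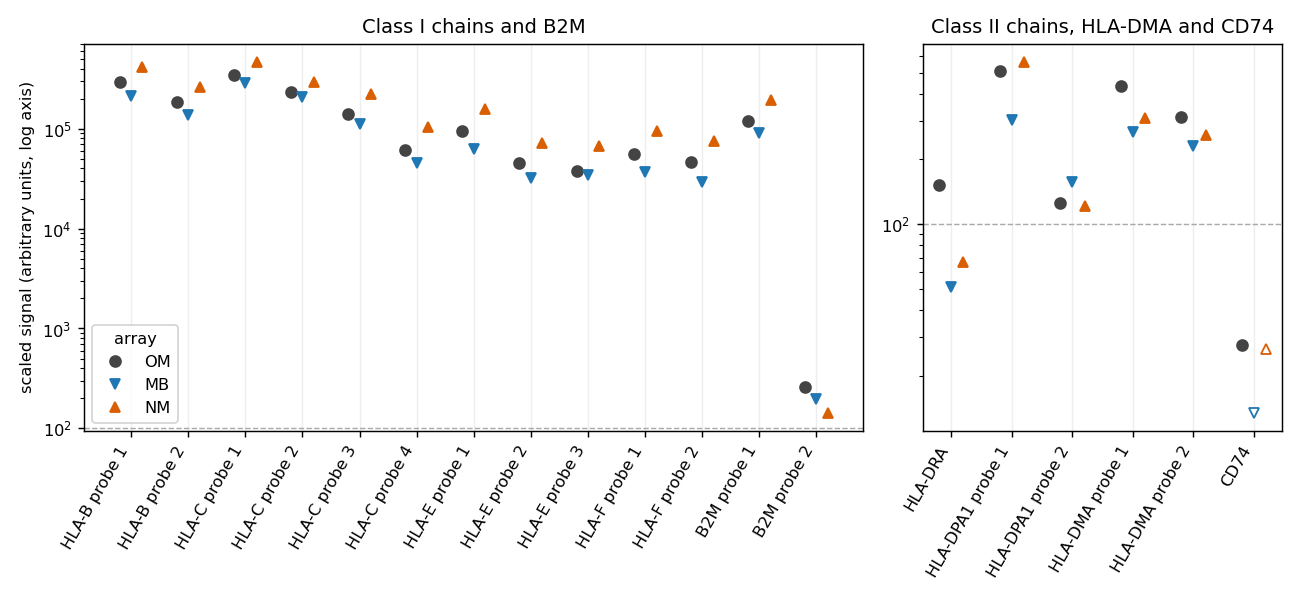
Scaled signal in a.u. (log axis) of every member probe on the OM, MB and NM arrays, with class I and B2M on the left and class II on the right on axes of different range; open symbols are not well above background and the dashed line is 100 a.u. On 12 of the 13 class I and B2M probes the symbols run MB, OM, NM from low to high, and the B2M probe at 142 to 257 a.u. is the exception.

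The 4 heavy chains and B2M thus had the same order of signals, MB below OM below NM, on 12 of their 13 probes. That order held for 5 of these 5 genes at their brightest probes, against 26.8% of the 17580 genes on the array that were well above background on all arrays and over 100 a.u. on at least 1. For HLA-C that probe lay in the HLA-B region by its coordinates, so HLA-B and HLA-C may not be separate readings here, which was not tested. The 5 genes had a median of -0.46 on the log2 scale for MB over OM, where all 17815 genes above 100 a.u. had a median of 0.09, and 0.72 for NM over OM, where all 17554 had 0.08. The 12 probes kept the order under each of 7 other scalings of the arrays, from the 75th percentile to spike-in RNA. Over these and the housekeeping scaling used here, the median log2 ratio of all probes above 100 a.u. moved between -0.19 and 0.11 for MB over OM. Set against that median, HLA-B lay between -0.58 and -0.36, HLA-C between -0.38 and -0.20, HLA-E between -0.73 and -0.49, HLA-F between -0.71 and -0.49 and B2M between -0.50 and -0.23 for MB over OM. For NM over OM the 5 genes lay above the median under each scaling, HLA-B by 0.15 to 0.47, HLA-C by 0.18 to 0.40, HLA-E by 0.43 to 0.68, HLA-F by 0.53 to 0.72 and B2M by 0.42 to 0.67.

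At 2-fold or more, counting a gene only where the brighter of its unscaled signals exceeded 100 a.u., 0 of the 5 class I and B2M genes differed between MB and OM or between NM and OM, and 3 of 5, HLA-E, HLA-F and B2M, were lower in MB than in NM. Over all 17772 genes that could pass between MB and NM, 10.4% were lower and 13.7% higher in MB. The count of 3 depended on the scaling, with HLA-B added under the 75th percentile, geometric mean and spike-in scalings, B2M lost without scaling and with 6 housekeeping genes, and HLA-F alone of the 5 under quantile normalization. None of the 9 members reached 5-fold, the threshold of the study's methods, in any comparison. The shares of all genes at 5-fold were 1.04% higher and 0.690% lower for MB against OM, 0.763% and 0.997% for NM against OM, and 2.88% and 1.67% for MB against NM.

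HLA-DRA, the alpha chain of HLA-DR, gave 152 a.u. in OM, 51.5 in MB and 66.6 in NM, well above background on all arrays. It was 2.96-fold lower in MB and 2.29-fold lower in NM than in OM, so the NM array did not return to the OM signal on this probe. It was the 1 member of the 8 above 100 a.u. that passed 2-fold downward in MB against OM, where 4.23% of all genes did so and 6.76% passed upward. In NM against OM it was again 1 of 8, beside 5.98% lower and 4.36% higher over the 17554 genes. Its signals are dim, and with the signals taken without background subtraction the log2 ratios of -1.57 and -1.20 became -0.96 and -0.64, under 2-fold.

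HLA-DPA1, the alpha chain of HLA-DP, had probes that disagreed. The brighter, at chr6:33140826-33140885, gave 509.9 a.u. in OM, 303 in MB and 564 in NM, 1.69-fold lower in MB than in OM. The dimmer lay at chr6:33145415-33145474, and its sequence follows because its MB signal was the highest of the 3.
HLA-DPA1: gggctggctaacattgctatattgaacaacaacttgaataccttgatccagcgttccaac
It gave 125 a.u. in OM, 157 in MB and 122 in NM, 1.26-fold higher in MB than in OM. No direction is therefore given for HLA-DPA1 in MB. For NM over OM the log2 ratio of the brighter probe was 0.14 and turned negative without scaling and with 6 housekeeping genes.

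HLA-DMA, a chain of the peptide editor HLA-DM, gave 434 a.u. in OM, 268 in MB and 309.5 in NM, which was 1.62-fold lower in MB and 1.40-fold lower in NM than in OM. Its other probe gave 313, 229 and 259 a.u. in the same order. Both probes had their highest signal in OM.

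CD74 gave 27.8 a.u. in OM, where it was well above background, and 13.4 and 26.6 a.u. in MB and NM, where it was not. Its signal in OM was at least 1.40-fold that of MB, and no fold is given for NM. All 3 of its signals were under 100 a.u., so it entered no count. The invariant chain that accompanies class II was thus near or at background on its 1 probe.

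Of the 3 class II members that could be ranked, HLA-DRA and HLA-DMA lay below OM in both MB and NM, a pattern found in 16.0% of the 17580 genes, and HLA-DPA1 on its brighter probe followed the order of class I. The median of these 3 was -0.75 (log2, MB over OM), which is the value of that HLA-DPA1 probe, and -0.49 (log2, NM over OM). The HLA-DPA1 probes disagreed in MB, and with probes averaged the MB over OM median was -0.57. CD74 was left out because it was not well above background in MB and NM. For MB over OM the class I and B2M genes ranged from -0.61 to -0.26 and the 3 class II genes from -1.57 to -0.69, and for NM over OM from 0.45 to 0.78 and from -1.20 to 0.14. With each gene at its brightest probe and the scaling used here the ranges were thus apart in both comparisons, but this depended on the processing. For MB over OM they overlapped in 3 of 15 alternatives. Some of the 15, such as the deposited table and the treatments of dim signals, could not change these ranges. With normexp the class II range became -0.89 to -0.60 beside -0.64 to -0.28 for class I, without background subtraction -0.96 to -0.62 beside -0.64 to -0.28, and with probes averaged -1.57 to -0.21 beside -0.63 to -0.30. For NM over OM they overlapped in 2 of 15, at -1.06 to 0.16 beside 0.15 to 0.53 under quantile normalization and -1.20 to 0.05 beside -0.07 to 0.75 with probes averaged. The dimmer HLA-DPA1 probe, at 0.33 for MB over OM, also lay above the class I range.

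**Figure D3:**
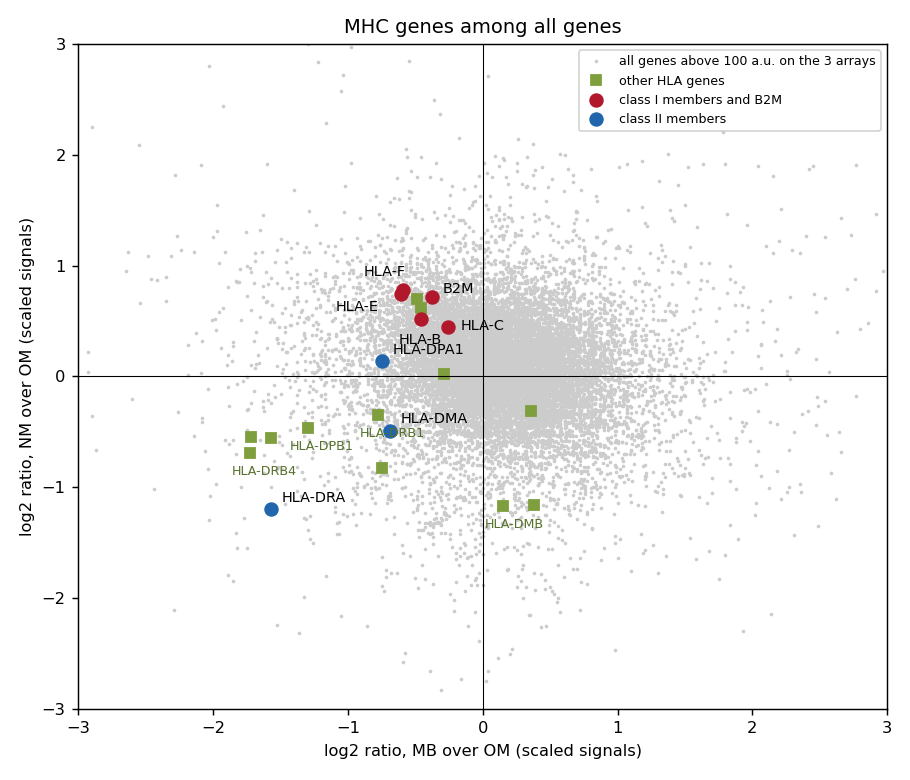
Log2 ratio of scaled signals, MB over OM on the horizontal axis and NM over OM on the vertical axis, 1 point per gene; grey points are genes well above background and over 100 a.u. on all 3 arrays, coloured points the members other than CD74, which was at background in MB and NM, and other HLA genes over 100 a.u. on at least 1 array. Class I members and B2M lie together at the upper left, while HLA-DRA, with HLA-DRB4 and HLA-DPB1 nearby, lies at the lower left.

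The other HLA genes were read from a list of 20, of which 18 had a probe and 12 exceeded 100 a.u. in OM or MB. HLA-G gave 243039, 176903 and 372447 a.u. in OM, MB and NM and HLA-H 89787, 64059 and 145759, both in the order of the class I members. Other HLA-G probes were far dimmer, at 83.0, 40.9 and 70.8 a.u. and at 68.6, 37.4 and 81.9 a.u., and the first of these had NM below OM. The HLA-H probe and the HLA-E probe at chr6:30566046-30566105 were identical at 35 of 41 overlapping bases, with a shared run of 21. Its values may therefore hold RNA of HLA-E, which was not tested. MR1, a class I-like gene, gave 968, 1240.3 and 781 a.u. and did not follow that order. Of the class II beta chains, HLA-DRB1 gave 1344, 782 and 1055 a.u. in OM, MB and NM, 1.72-fold lower in MB than in OM. Beside 4.23% lower and 6.76% higher over all 17815 genes, 4 of the 12 passed 2-fold downward in MB against OM and 0 upward. These were HLA-DRB4 (279.8, 84.3 and 174 a.u. in OM, MB and NM, 3.32-fold lower in MB), HLA-DRB5 (705, 214 and 481 a.u., 3.29-fold), HLA-DRB3 (460.0, 155 and 311 a.u., 2.96-fold) and HLA-DPB1 (392, 159 and 283 a.u., 2.47-fold). All of them are class II beta chains, and the DRB genes are near copies of each other, so these probes may read the same RNA. HFE, an iron-regulating class I-like gene, gave 207, 269.6 and 92.4 a.u. and was 2.23-fold lower in NM than in OM. HLA-DMB, the partner of HLA-DMA, was 2.25-fold lower in NM and gave 1286, 1431 and 571 a.u. in OM, MB and NM, so the pair that forms HLA-DM had its signals in different orders.

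The genes that prepare peptides for class I numbered 14, all above 100 a.u. In MB against OM 10 were higher and 4 lower, but the number higher fell to 3 under another scaling, and the median of 0.06 on the log2 scale moved between -0.24 and 0.11, so the list has no settled direction there. In NM against OM 12 were higher and 2 lower, beside 9989 higher and 7565 lower over all 17554 genes. The list's median was 0.57, between 0.34 and 0.63 over the scalings. None of its genes was 2-fold or more from OM in either comparison. TAP1, a subunit of the transporter that carries peptides to class I, gave 19949, 20416 and 32839.5 a.u. in OM, MB and NM. It was 1.65-fold higher in NM than in OM, while its log2 ratio of 0.03 for MB over OM changed sign with the scaling. PSMB9, an immunoproteasome subunit, gave 19866, 15156 and 32116 a.u. in OM, MB and NM. It was the 1 gene of the list 2-fold or more apart between MB and NM, 2.12-fold lower in MB, beside 10.4% lower and 13.7% higher over all genes. Over the scalings its log2 ratio for MB over NM ran from -1.25 to -0.92, so it was not past 2-fold under all of them.

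Of 6 genes of endosomal processing, the protease genes CTSS and CTSL passed 2-fold downward in MB against OM, where 4.23% of all genes did so. CTSS, which encodes the cathepsin that degrades the invariant chain, gave 3944 a.u. in OM, 1874 in MB and 6789 in NM, and CTSL 46946, 20561 and 55338 a.u. Both had the order of the class I genes, but CTSL's log2 ratio of 0.24 for NM over OM fell to 0.01 under another scaling. In MB against OM 3 of the 6 were lower and 3 higher, CTSD at 0.72, CTSB at 0.23 and LGMN at 0.19. The median of the 6 genes was -0.13 for MB over OM, between -0.44 and -0.13 over the scalings. For NM over OM it was 0.51, between 0.31 and 0.58.

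The 9 regulators of MHC transcription included none that was 2-fold or more apart in any of the comparisons. CIITA gave 343 a.u. in OM, 281 in MB and 247 in NM, 1.39-fold lower in NM than in OM on its brightest probe, and 207, 173 and 206 a.u. on the next. NLRC5, under its older name NOD27, gave 359, 595 and 332 a.u., 1.66-fold higher in MB than in OM, the reverse of the order of the class I members. Its other probes gave 123, 142 and 78.5 a.u. and 86.5, 106 and 56.7 a.u., also highest in MB.

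Of 14 genes of the interferon gamma response 10 exceeded 100 a.u., while IFNG, CXCL9, CXCL10 and CXCL11 were at background throughout. IRF1, a transcription factor that binds interferon response elements, gave 1455 a.u. in OM, 1031 in MB and 4028 in NM, 2.77-fold higher in NM than in OM. GBP2, an interferon-induced GTPase, gave 1144, 1473 and 4033 a.u., 3.53-fold higher in NM. These were the 2 genes of the 10 that were 2-fold or more higher in NM than in OM, where 4.36% of all genes were. None of the 10 was 2-fold or more apart between MB and OM. The median of the 10 was 0.16 for MB over OM, between -0.15 and 0.16 over the scalings, and 0.42 for NM over OM, between 0.22 and 0.49. Of 11 ligands of T and NK cells 7 exceeded 100 a.u., with a median of 0.22 for MB over OM, where 4 were higher and 3 lower, and of 0.31 for NM over OM. The median for MB over OM lay between -0.09 and 0.22 over the scalings. ICAM1, the adhesion ligand of LFA-1, was the 1 gene of the 7 that was 2-fold or more from OM. Over all genes 4.23% were lower and 6.76% higher in MB against OM, and 5.98% lower and 4.36% higher in NM against OM. It gave 48207 a.u. in OM, 12851 in MB and 104715 in NM, 3.75-fold lower in MB and 2.17-fold higher in NM than in OM. The log2 ratio of 1.12 for NM over OM ran from 0.86 to 1.19 over the scalings, so that call was not kept under all of them. In MB against OM the list also held CD276 at 0.69, MICB at 0.58 and CD58 at 0.56 on the log2 scale, opposite in sign to ICAM1. CD274, at -0.95, had the sign of ICAM1. For NM over OM 4 of the 7 were higher and 3 lower, with CD274 at 0.84.

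**Figure D4:**
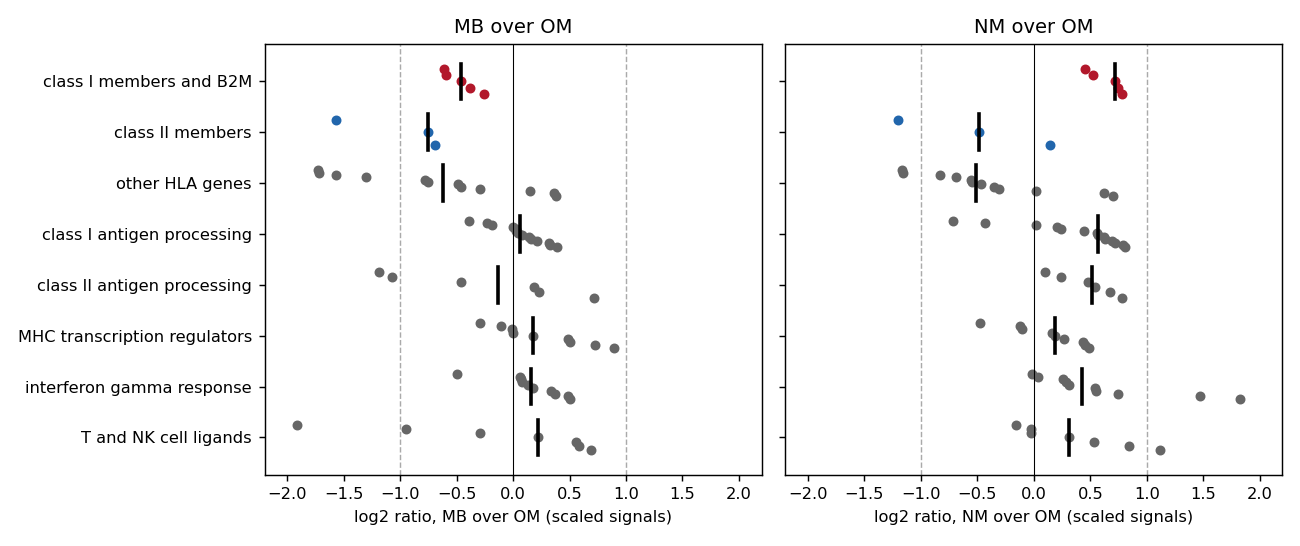
Log2 ratio of scaled signals for each gene of the lists with the brighter array over 100 a.u. (points, 1 probe a gene) with the list's median (bar), for MB over OM on the left and NM over OM on the right; dashed lines mark 2-fold. The class I members and B2M lie below 0 on the left and above 0 on the right, while the genes of class I antigen processing spread around 0 on the left and lie mostly above it on the right.

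By distance over the log2 ratios of MB and NM to OM, the genes nearest to HLA-C among 15868 were CCDC93, NUSAP1 and LOC644937, at 0.005, 0.009 and 0.010, and 258 genes lay within 0.1 of it. Nearest to HLA-DPA1 was a transcript with no gene symbol, followed by FLJ39582 and FLJ31951, at 0.011, 0.017 and 0.027, with 41 genes within 0.1. With 3 arrays such likeness is common and describes these values alone.

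The labelled cell type was checked against lineage markers. SOX10, S100B, PAX3 and MITF were well above background on all arrays, and TYR and TYRP1, enzymes of pigment synthesis, on none. The 9 melanocyte lineage markers summed to 35117 a.u. in OM, 59017 in MB and 25079 in NM, the reverse of the order of the class I genes. That was not the order of each marker. Of the 5 above 100 a.u., 4 were higher and 1, SILV, lower in MB than in OM. In NM against OM 3 were higher and 2 lower, with a median of 0.11 on the log2 scale, MITF at 0.57 and S100B at -0.73. Of 10 leukocyte markers PTPRC, which marks all white blood cells, and CD1C stayed at background on every array, and MS4A1 exceeded it in OM alone. The summed signal of that leukocyte list was 6491 a.u. in OM, 2915 in MB and 7832 in NM, which followed the order of the class I genes. Most of the sum was CD68 alone. The largest differences in the list were those of CD68 (4716, 1766 and 5637 a.u.) and ITGAX (649, 174 and 694 a.u.). ITGAM, an integrin of myeloid cells, went against the sum in MB with 135, 199 and 346 a.u., 1.47-fold higher in MB and 2.57-fold higher in NM than in OM. The part of other cells in the MHC values was not tested beyond these markers. The 6 endothelial and epithelial markers summed to 267, 505 and 197 a.u., with CDH5, TACSTD1 (EPCAM) and KRT5 at background on every array. KRT14, the 1 marker of this list over 100 a.u., had log2 ratios of 0.84 for MB over OM and -0.67 for NM over OM. The dimmer PECAM1 had 2.87 and 0.33, and KDR -0.86 and -0.12.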

How the data were processed

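Total RNA of 1205Lu cells in 3 populations (OM, MB and NM) was labelled with Cy3 and hybridised to 1 Agilent array each, all on the same slide, so no comparison crosses slides. The authors deposited the intensity of each spot as Agilent Feature Extraction (version 9.5 per the labels, 9.5.3.1 in the file headers) wrote it, after subtraction of local background and with no scaling between arrays, and a value table with the same intensity (43376 of 43376 spots per array within 0.1%).

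From these, control and outlier spots were removed, spots of a probe averaged, and the arrays scaled to a common mean of 3 housekeeping genes, ACTB, GAPDH and HSP90AA1 (the methods name HSP90 without the gene), with divisors of 0.978 for MB and 0.877 for NM relative to OM. A gene passed at 2-fold, or at the methods' 5-fold, where its brighter unscaled signal exceeded 100 a.u.. A dimmer array not well above background gives a bound, against the higher of the probe's signal and the lowest signal well above background there (20.9 a.u. on OM, 19.4 on MB, 29.1 on NM). There is no replicate culture, so no p-value is given and the number of arrays limits precision. The members and lists were chosen with earlier results of these data known, and the upstream motifs after reading the sequences. Outside the members, up to 4 genes per list with the largest differences of 2-fold or more from OM are named, plus HLA-DRB1, CIITA, NLRC5, TAP1 and IRF1, and markers whose absence was checked; 1 further gene of this rule is not reported here. Read after their values were seen were PSMB9, CTSS and CTSL in MB against NM, and CD276, MICB, CD58 and CD274 against OM. So were HLA-G, HLA-H and MR1, and the next probes of CIITA and NLRC5. The ratios of SILV, MITF, S100B, KRT14, PECAM1, KDR, CTSD, CTSB and LGMN were likewise read after their values were seen. Lists were described by counts and medians. The alternatives comprised 7 scalings, 2 background corrections (1 by limma 3.58.1 in R 4.3.3, normexp with offset 50), outlier spots kept, all probes averaged, 3 treatments of dim signals and the deposited table. The steps were tested on simulated data. Python 3.11.15, numpy 2.4.6, pandas 2.3.3 and matplotlib 3.10.9 were used.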

Additional observations from a re-analysis of the deposited data

How the results depend on the processing

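Over 15 alternatives, 398 of the 405 recomputed log2 ratios of the members kept their sign. The 7 that did not were HLA-DPA1 for NM over OM (without scaling and with 6 housekeeping genes), CD74 for NM over OM (under 4 settings, at background) and B2M for NM over OM, which became -0.07 when its probes were averaged. Signs were read from rounded values, and CD74 for NM over OM, at 0.00 under the geometric mean scaling, was not counted. The deposited table, no filter on dim signals and the filter for both arrays well above background left every log2 ratio unchanged. With a dim array set to its floor only CD74 moved. Those settings could thus turn no sign of the other members. No member reached 5-fold under any setting. The count of members 2-fold or more apart between MB and OM was 1, HLA-DRA, and became 2 under spike-in scaling (HLA-DPA1 added), 2 with no filter on dim signals (CD74 added), 0 with normexp and 0 without background subtraction. Between NM and OM it was 1, again HLA-DRA, and became 0 with normexp and 0 without background subtraction, where the background left in the signal compresses dim probes. Between MB and NM it was 3 and became 5 with 75th percentile scaling and 5 with spike-in scaling, in both by HLA-B and HLA-DPA1. Other settings gave 2 to 4. No paired analysis was possible because each population has a single array, and no array could be left out. Signals of the class II members limit their ratios more than those of class I.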
